A study of Mus musculus with 14 samples.

Results

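Ribosome biogenesis genes are described here in mouse peritoneal macrophages. They are 40 named genes whose products make, cut, modify and assemble ribosomal RNA with ribosomal proteins, chosen by name for their place in this pathway. All 40 were measured, through 53 probes, among 20342 named genes with a usable probe. Each was well above background on all 14 arrays, except that the Npm1 spot on array PBS 1 was left out as a scanner outlier.

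Ribosomes are built in the nucleolus, where RNA polymerase I transcribes the long precursor of the ribosomal RNAs. Small nucleolar ribonucleoproteins (snoRNPs) then methylate the precursor or turn its uridines into pseudouridines, while separate sets of assembly factors shape the small and the large subunit. The pathway is costly and runs high in growing and dividing cells, and the transcription factor Myc is known to drive many of its genes. Roles given below are those described for these genes or for their human and yeast counterparts.

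The cells came from C57BL/6 mice and were sorted as positive for both CD11b and F4/80, which are surface proteins of macrophages. All mice were injected into the peritoneum. The Thio+IL-4C group (4 arrays) received 2 ml of 4% thioglycollate medium, an irritant broth that recruits monocytes, together with IL-4C, a complex of 5 µg of the cytokine IL-4 and 25 µg of 11B11, an antibody to it. The Thio group (3 arrays) received the broth, the IL-4C group (4 arrays) the complex, and the PBS group (3 arrays) the vehicle. Cells of the Thio and Thio+IL-4C groups are called elicited and those of the IL-4C and PBS groups resident. The labels give no age, no interval between injection and harvest, and no link between replicates and animals, and the p-values therefore reflect the scatter among these samples alone, which may be technical. Elicited cells may include resident cells that remained, and the sort alone does not separate them.

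Levels below are on a log2 scale: the scanner's processed signal divided by its 75th percentile on that array, then log2. A difference is one between such levels. This percentile lay between 2044.3 and 2549.4 on Thio+IL-4C arrays, between 2294.4 and 3578.3 on Thio arrays, between 3058.7 and 3883.4 on IL-4C arrays and between 1275.4 and 1818.5 on PBS arrays. Array brightness therefore moved, without overlap, with IL-4C versus PBS, Thio versus PBS and Thio+IL-4C versus IL-4C. Only the Thio+IL-4C and Thio ranges overlapped among the pairs compared. Array Thio 1 stood apart: across genes it correlated at 0.848 and 0.865 with Thio 2 and Thio 3, which correlated at 0.984 with each other, and at 0.917 to 0.931 with the PBS arrays. It shared slide 1 with all PBS and IL-4C arrays, while Thio 2, Thio 3 and all Thio+IL-4C arrays were on slide 2. The integrin gene Itgam (CD11b), the F4/80 gene Adgre1 and the receptor gene Csf1r were well above background on every array. The 6 measured genes of a 7-gene macrophage list summed to linear levels of 112 to 132 in Thio+IL-4C, 132 to 175 in Thio, 237 to 246 in IL-4C and 381 to 443 in PBS cells. In such sorted pools, fewer cells of a type and less RNA per cell cannot be told apart. Values of bright genes also move with the scaling. The 184 genes with a mean level above 6 had a median of -0.61 in IL-4C versus PBS here and -0.08 with quantile normalization. In Thio versus PBS these medians were -0.82 and -0.02. The part of the scaling in the macrophage sums was not tested.

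Because Myc and its relatives bind the E-box CACGTG, that hexamer was searched in the RefSeq promoters of the members (GRCm38.p6, 250 bases before to 50 after each gene start). The hexamer is its own reverse complement, so both strands are covered at once. It was present in 8 of the 35 members with a promoter in the table (22.9%), against 2187 of 27025 genes in all (8.1%) and 6 of 57 cytosolic ribosomal protein genes (10.5%). The genes are Imp4, Ltv1, Nop2, Pes1, Pno1, Tsr1, Utp20 and Wdr43. A match is a description of the letters and not a site of binding. The windows below are shown because they hold the hexamer, in capitals, with 12 bases on each side, read 5′ to 3′ on the strand of the gene. In Imp4 and Nop2 it lay before the gene start, while in Tsr1, Pes1, Ltv1 and Wdr43, which were added to the display after the matches were seen, it lay just after the start.
Imp4, chr1:34439696-34439725, plus strand: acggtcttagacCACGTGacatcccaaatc
Nop2, chr6:125131811-125131840, plus strand: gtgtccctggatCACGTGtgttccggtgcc
Tsr1, chr11:74898092-74898121, plus strand: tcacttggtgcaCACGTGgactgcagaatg
Pes1, chr11:3963965-3963994, plus strand: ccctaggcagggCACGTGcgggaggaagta
Ltv1, chr10:13193092-13193121, minus strand: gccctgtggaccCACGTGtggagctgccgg
Wdr43, chr17:71616220-71616249, plus strand: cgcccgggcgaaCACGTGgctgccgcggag

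In elicited macrophages, IL-4C went with higher levels of most of these genes. In Thio+IL-4C versus Thio, 33 of the 40 rose and 1 fell, where 16.2% of all genes rose and 23.1% fell (39.4% called in all). The median difference of the members was 1.15, and that of all genes 0.03. The largest rises were those of the pseudouridine synthase gene Dkc1 (5.77-fold), the snoRNP core genes Nop58 (5.01-fold), Gar1 (4.52-fold) and Nop56 (3.41-fold), and the small subunit factor gene Tsr1 (3.26-fold). The gene that fell was Rrp1, which acts in large subunit assembly. Without array Thio 1, 35 rose and 1 fell, with a median of 1.19, where 4219 and 4334 of all 20342 genes did.

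In resident macrophages, the rise was smaller and took in fewer of the genes. In IL-4C versus PBS, 21 of the 40 rose and 1, Pes1, fell, where 16.9% of all genes rose and 15.3% fell (32.2% called in all). The median difference was 0.50 for the members and -0.01 for all genes. Nop56 (2.35-fold), Dkc1 (2.32-fold), Nolc1 (2.31-fold), Nhp2 (2.25-fold) and Pno1 (2.21-fold) rose most, though a second probe of Nolc1 gave 0.22 on the log2 scale (adjusted p = 0.499). The number that fell was 2 without array PBS 3, IL-4C 1 or Thio 1, and without PBS 3, the dimmest array, 15 rose. Of all 20342 genes, 2939 rose and 2595 fell without PBS 3.

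Without IL-4C, elicited macrophages had lower levels of many of these genes than resident ones. In Thio versus PBS, 21 of the 40 fell and 2, Nolc1 and Pno1, rose, where 24.3% of all genes fell and 20.2% rose (44.5% called in all), with a median of -0.42 for the members and -0.09 for all genes. Slide nearly coincides with this comparison. A fit with slide as a block rests here on Thio 1 alone against the 3 PBS arrays, with the spread taken from the other groups. It gave a median of -0.25 for the members and 0.045 for all genes, which compare that 1 array with PBS. Without Thio 1, 26 fell and 3 rose, with a median of -0.52, where 7758 and 6118 of all 20342 genes did. Without Thio 2, Thio 3 or PBS 3 only 1 member rose.

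**Figure D1:**
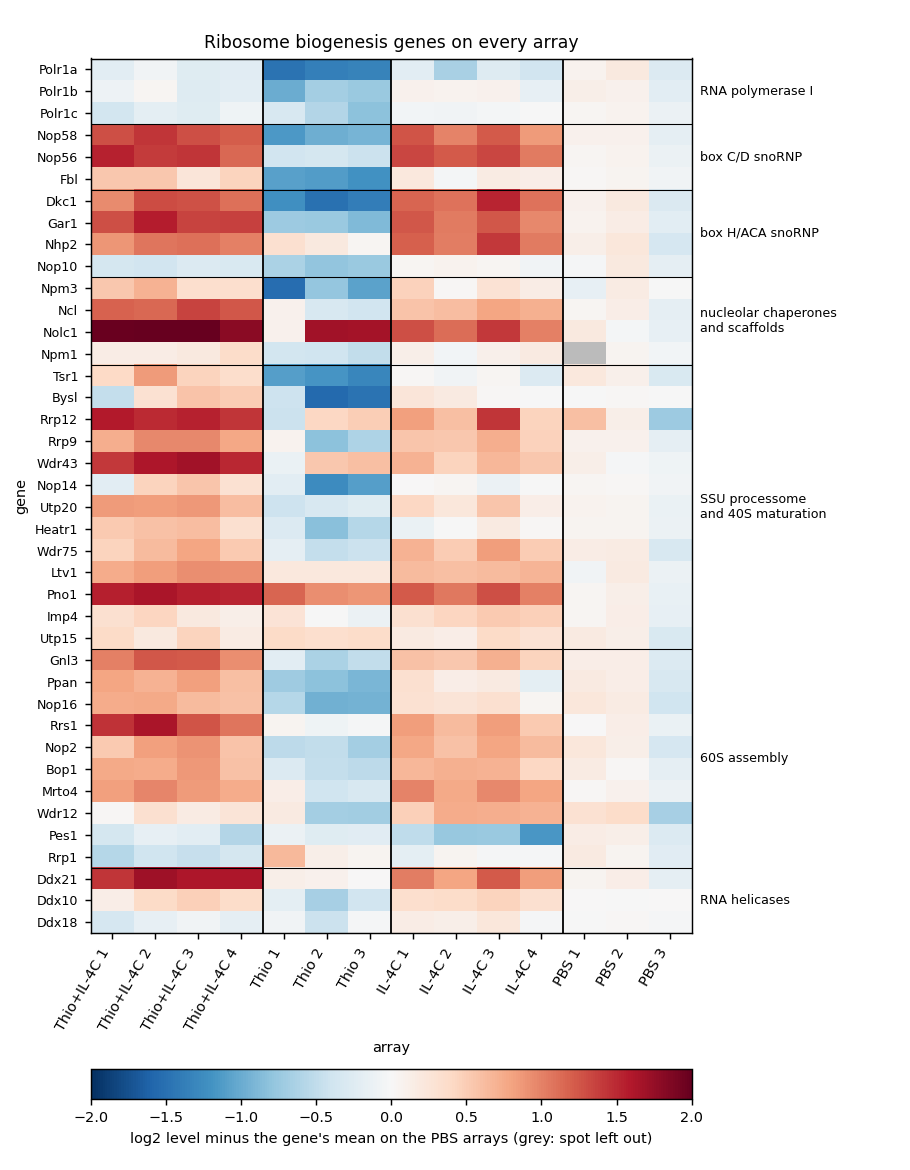
Level of each of the 40 genes (rows, by role) on each of the 14 arrays (columns, by group), as the log2 level minus the gene's mean on the PBS arrays, from blue (lower) to red (higher), with the 1 spot left out in grey. The median over the genes was 0.58 to 0.81 on the Thio+IL-4C arrays, -0.49 to -0.25 on the Thio arrays, 0.43 to 0.59 on the IL-4C arrays and -0.18 to 0.11 on the PBS arrays.

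The arrays separated as the calls did. The median over members, relative to their PBS means, was 0.64, 0.75, 0.81 and 0.58 on the Thio+IL-4C arrays, against -0.25, -0.49 and -0.49 on the Thio arrays. It was 0.47, 0.44, 0.59 and 0.43 on the IL-4C arrays, against 0.08, 0.11 and -0.18 on the PBS arrays. The groups of each pair did not overlap in this median, and the elicited pair lay further apart. For 32 members every Thio+IL-4C array was above every Thio array and for 1 every array was below, where 21.8% and 22.7% of all genes did so. For 22 members every IL-4C array was above every PBS array and for 1 below, where 26.4% and 26.9% of all genes did so. For 22 members every Thio array was below every PBS array and for 3 above, where 23.4% and 19.2% of all genes did so.

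Other genes moved with the treatments as well. Of 17 cell cycle genes, 14 rose in Thio+IL-4C versus Thio (median 2.32), where 16.2% of all genes did. In IL-4C versus PBS 16 rose (median 3.17), where 16.9% of all genes did. In Thio versus PBS 2 rose and 10 fell (median -0.96), where 20.2% and 24.3% of all genes did. The 7 B cell genes summed to linear levels of 2.25 to 2.33 in Thio+IL-4C and 5.11 to 5.79 in Thio cells, and to 2.63 to 2.97 in IL-4C and 9.65 to 18.1 in PBS cells. The 6 measured neutrophil genes summed to 11.7 to 17.6 in Thio+IL-4C and 7.90 to 16.1 in Thio cells, and to 2.77 to 3.05 in IL-4C and 3.65 to 4.40 in PBS cells. Mast cell genes, 6 in all, summed to 3.13 to 3.50 in IL-4C and 6.21 to 7.62 in PBS cells. The 5 dendritic cell genes summed to 3.20 to 4.83 in Thio+IL-4C and 0.796 to 2.46 in Thio cells, and to 5.48 to 6.40 in IL-4C and 2.25 to 3.49 in PBS cells. These sums were higher with IL-4C in both pairs, but only 3 of the 5 differences were positive in each pair. In each pair 1 of the 5 was called higher, and in the elicited pair 1 was called lower. The 8 mesothelial and stromal genes summed to 2.27 to 2.56 in Thio+IL-4C and 3.04 to 4.88 in Thio cells, and to 1.06 to 1.18 in IL-4C and 1.66 to 1.87 in PBS cells. Genes that mark resident peritoneal macrophages, 6 in all, summed to 4.53 to 6.56 in Thio+IL-4C and 0.932 to 1.92 in Thio cells, and to 183 to 207 in IL-4C and 496 to 557 in PBS cells. With IL-4C this sum was higher in elicited and lower in resident cells, without overlap, but its genes did not move together. With IL-4C, 4 of the 6 differences were positive in elicited and 2 of the 6 in resident cells. Against the sums, Prg4 was lower in Thio+IL-4C than in Thio cells, and Serpinb2 was higher in IL-4C than in PBS cells. The part of these differences in the results on ribosome biogenesis genes was not tested.

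The transcription machinery comes first. Polr1a and Polr1b encode the large catalytic subunits of RNA polymerase I, and Polr1c a subunit shared with RNA polymerase III. Polr1a stood at 1.37, 1.51, 1.33 and 1.35 on the Thio+IL-4C arrays, against 0.09, 0.21 and 0.23 on the Thio arrays. In resident cells it stood at 1.37, 0.93, 1.32 and 1.19 on the IL-4C arrays, against 1.65, 1.77 and 1.30 on the PBS arrays. The elicited groups did not overlap, the resident ones did, and the Thio arrays were the low ones throughout. Polr1a rose by 1.21 in Thio+IL-4C versus Thio (SE 0.14, limma adjusted p = 2.05e-05) and fell by 1.39 in Thio versus PBS (SE 0.14, adjusted p = 1.31e-05). Its difference in IL-4C versus PBS was -0.37 (SE 0.14, adjusted p = 0.0548), and it passed the threshold once slide was a block (adjusted p = 0.0395).

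Polr1b stood at -0.04, 0.09, -0.20 and -0.16 on the Thio+IL-4C arrays, against -0.93, -0.62 and -0.68 on the Thio arrays. Its levels were 0.14, 0.13, 0.14 and -0.11 on the IL-4C arrays, against 0.18, 0.15 and -0.16 on the PBS arrays. Again the Thio arrays alone lay low, and the IL-4C and PBS arrays overlapped. The differences were 0.67 in Thio+IL-4C versus Thio (adjusted p = 0.00121) and 0.01 in IL-4C versus PBS (SE 0.13, adjusted p = 0.96). All 3 polymerase genes rose in Thio+IL-4C versus Thio and fell in Thio versus PBS, and none was called in IL-4C versus PBS. Of all genes, 16.2% rose in the first comparison, 24.3% fell in the second and 32.2% were called in the third.

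The box C/D snoRNP genes gave some of the largest values. Nop56 and Nop58 encode the core scaffold proteins of the particle and Fbl encodes fibrillarin, its ribose methyltransferase. Nop56 stood at 3.77, 3.63, 3.66 and 3.37 on the Thio+IL-4C arrays, against 1.84, 1.87 and 1.79 on the Thio arrays. On the resident side it stood at 3.57, 3.45, 3.56 and 3.26 on the IL-4C arrays, against 2.27, 2.30 and 2.11 on the PBS arrays. Neither pair overlapped. The rise was 1.77 in Thio+IL-4C versus Thio (SE 0.12, adjusted p = 3.4e-07) and 1.24 in IL-4C versus PBS (SE 0.12, adjusted p = 6.58e-06).

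Nop58 stood at 3.04, 3.18, 3.04 and 2.96 on the Thio+IL-4C arrays, against 0.60, 0.77 and 0.83 on the Thio arrays. The IL-4C arrays gave 3.01, 2.75, 2.98 and 2.60, against 1.84, 1.84 and 1.58 on the PBS arrays. Neither pair overlapped, and the Thio arrays lay below all others. Nop58 rose by 2.33 in Thio+IL-4C versus Thio (adjusted p = 7.9e-08) and by 1.08 in IL-4C versus PBS (adjusted p = 3.51e-05), and fell by 1.02 in Thio versus PBS (adjusted p = 9.03e-05).

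Fbl was called in the elicited pair and not in the resident one. It stood at 2.88, 2.89, 2.59 and 2.79 on the Thio+IL-4C arrays, against 1.26, 1.22 and 1.13 on the Thio arrays. On the IL-4C arrays it stood at 2.56, 2.31, 2.50 and 2.47, against 2.36, 2.40 and 2.27 on the PBS arrays. The elicited groups lay far apart and the resident groups overlapped. Fbl rose by 1.59 in Thio+IL-4C versus Thio (SE 0.10, adjusted p = 3.05e-07), while its difference in IL-4C versus PBS was 0.12 (SE 0.10, adjusted p = 0.458). In Thio versus PBS it fell by 1.14 (SE 0.11, adjusted p = 7.13e-06), and array Thio 1, the only one on the slide of the PBS arrays, was lower than their mean by a difference of -1.08.

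**Figure D2:**
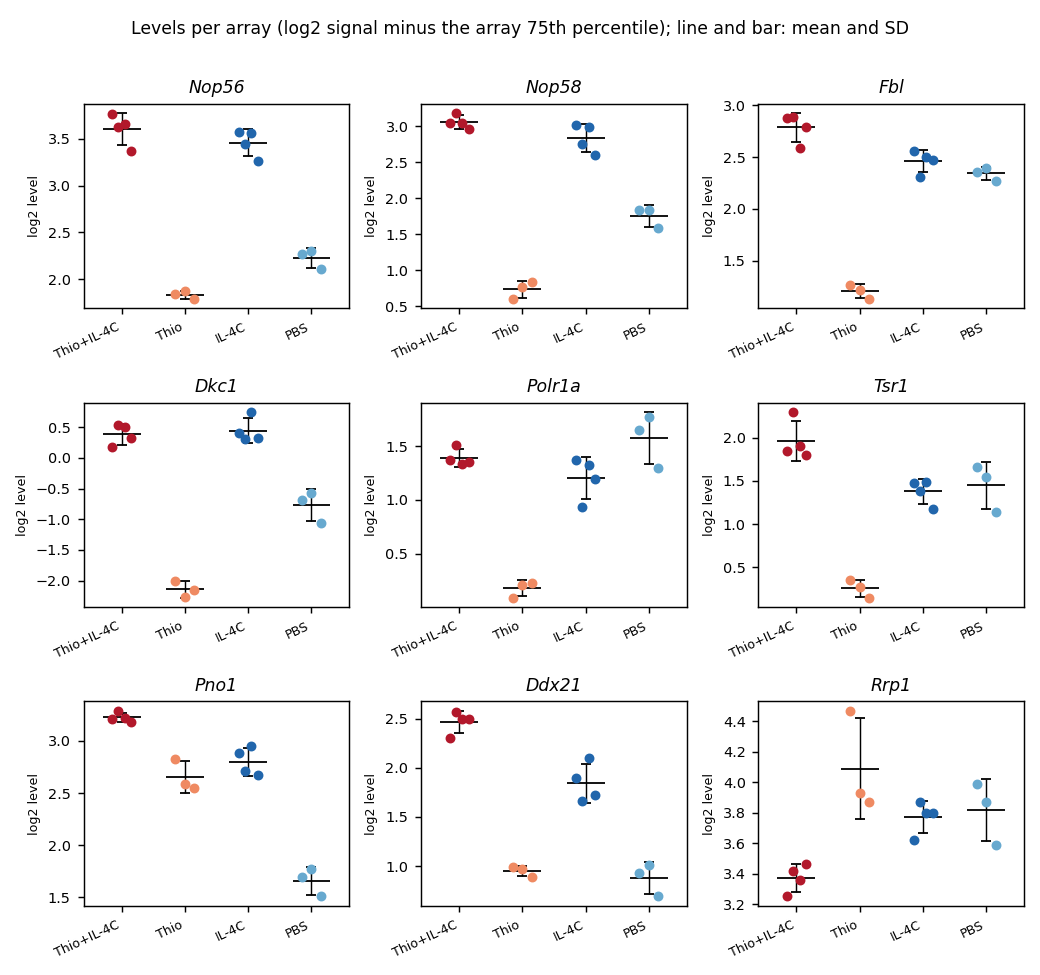
Log2 level (signal minus the array's 75th percentile) of 9 genes on each array, 1 panel per gene with its own vertical axis, and groups along the horizontal axis. Points are arrays, and the line and bar are the mean and SD. Dkc1 averaged 0.39 in Thio+IL-4C, -2.14 in Thio, 0.44 in IL-4C and -0.77 in PBS cells.

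Box H/ACA snoRNPs carry the pseudouridine synthase dyskerin, the product of Dkc1, together with the products of Nhp2, Gar1 and Nop10. Dkc1 stood at 0.17, 0.53, 0.51 and 0.33 on the Thio+IL-4C arrays, against -2.0, -2.27 and -2.16 on the Thio arrays. It gave 0.40, 0.31, 0.75 and 0.32 on the IL-4C arrays, against -0.68, -0.57 and -1.06 on the PBS arrays. Neither pair overlapped, and the ranges of the 2 groups given IL-4C overlapped. Dkc1 rose by 2.53 in Thio+IL-4C versus Thio (SE 0.15, adjusted p = 2.11e-07) and by 1.22 in IL-4C versus PBS (SE 0.15, adjusted p = 7.19e-05).

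Nop10, the smallest protein of the particle, showed the smallest resident difference of this role. On the Thio+IL-4C arrays it stood at 2.18, 2.14, 2.25 and 2.22, against 1.90, 1.74 and 1.79 on the Thio arrays. Resident levels were 2.57, 2.60, 2.56 and 2.46 on the IL-4C arrays, against 2.51, 2.72 and 2.35 on the PBS arrays. Only the elicited pair was apart. The differences were 0.39 (adjusted p = 0.00825) and 0.02 (adjusted p = 0.92), and in Thio versus PBS Nop10 fell by 0.72 (adjusted p = 0.000217). All 4 H/ACA genes rose in Thio+IL-4C versus Thio, where 16.2% of all genes did, and 16.9% of all genes rose in IL-4C versus PBS. Gar1, Nhp2 and Dkc1 rose in IL-4C versus PBS, with Gar1 at 1.12 (adjusted p = 1.92e-05) and Nhp2 at 1.17 (adjusted p = 6.53e-05).

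Nucleolar chaperones and scaffolds include nucleolin (Ncl), the nucleophosmins (Npm1, Npm3) and Nolc1, a phosphoprotein that gathers snoRNPs. Nolc1 stood at 2.98, 3.10, 3.11 and 2.81 on the Thio+IL-4C arrays, against 1.09, 2.68 and 2.66 on the Thio arrays. On the IL-4C arrays it stood at 2.29, 2.11, 2.42 and 2.01, against 1.20, 0.96 and 0.84 on the PBS arrays. Thio 1 lay with the PBS arrays, and Thio 2 and Thio 3 lay between the IL-4C and the Thio+IL-4C arrays. Nolc1 rose by 1.21 in IL-4C versus PBS (SE 0.32, adjusted p = 0.0109) and by 1.14 in Thio versus PBS (SE 0.34, adjusted p = 0.0187), but Thio 1 alone differed from the PBS mean by 0.09. Its other probe gave 0.22 in IL-4C versus PBS (adjusted p = 0.499), without a call. That probe fell by 1.16 in Thio versus PBS (adjusted p = 0.00143) and rose by 1.48 in Thio+IL-4C versus Thio (adjusted p = 0.000129), so the resident rise and the direction in Thio versus PBS depend on the probe.

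Npm1 stood at 5.53, 5.52, 5.57 and 5.74 on the Thio+IL-4C arrays, against 5.0, 4.98 and 4.89 on the Thio arrays. The IL-4C arrays gave 5.49, 5.32, 5.47 and 5.56, against 5.43 and 5.32 on the 2 PBS arrays that measured it. The elicited groups were apart and the resident groups were not. Npm1 rose by 0.63 in Thio+IL-4C versus Thio (adjusted p = 0.000347), and its difference in IL-4C versus PBS was 0.08 (adjusted p = 0.66), fitted without PBS 1. Among its other probes, 1 rose by 0.77 in IL-4C versus PBS (adjusted p = 5.02e-05) and the rest gave 0.03 to 0.13. Npm1 has near-identical pseudogene copies, so which transcripts each probe reads is uncertain. Ncl rose in both IL-4C comparisons with the probe used (1.43 in elicited and 0.67 in resident cells), while its other probe gave 0.24 and -0.26, neither called.

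The largest set of members serves the small subunit. Heatr1, Utp15, Utp20, Wdr43, Wdr75, Nop14, Rrp9 and Imp4 belong to the processome that folds the nascent precursor, and Bysl, Tsr1, Ltv1, Pno1 and Rrp12 act in later maturation and export. Of these 13 genes, 11 rose and none fell in Thio+IL-4C versus Thio (median 1.12), where 16.2% of all genes rose and 23.1% fell. In IL-4C versus PBS 7 rose and none fell (median 0.44), where 16.9% of all genes rose and 15.3% fell. Imp4 and Utp15 were those not called in Thio+IL-4C versus Thio. In Thio versus PBS, 4 of the 13 fell and 1, Pno1, rose, where 24.3% of all genes fell and 20.2% rose, so these counts do not set the 13 genes apart.

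Pno1, which helps to position the nuclease that makes the last cut of small subunit RNA, was high in all 3 treated groups. It stood at 3.21, 3.29, 3.22 and 3.18 on the Thio+IL-4C arrays, against 2.83, 2.59 and 2.55 on the Thio arrays. On the IL-4C arrays it stood at 2.88, 2.71, 2.95 and 2.67, against 1.70, 1.77 and 1.51 on the PBS arrays. The groups given IL-4C did not overlap those without it in either pair, and the PBS arrays were lowest. The Thio and IL-4C arrays overlapped each other. Pno1 rose by 0.57 in Thio+IL-4C versus Thio (adjusted p = 0.00125), by 1.14 in IL-4C versus PBS (adjusted p = 7.34e-06) and by 1.0 in Thio versus PBS (adjusted p = 3.37e-05). On the slide of the PBS arrays, Thio 1 alone differed from their mean by 1.17.

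Tsr1, a GTPase-like factor of late small subunit precursors, stood at 1.85, 2.30, 1.90 and 1.80 on the Thio+IL-4C arrays, against 0.35, 0.27 and 0.15 on the Thio arrays. Its resident levels were 1.48, 1.38, 1.49 and 1.18 on the IL-4C arrays, against 1.66, 1.55 and 1.14 on the PBS arrays. The elicited pair was apart and the resident pair overlapped. Tsr1 rose by 1.71 in Thio+IL-4C versus Thio (SE 0.16, adjusted p = 4.41e-06), and its difference in IL-4C versus PBS was -0.07 (SE 0.16, adjusted p = 0.818).

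Heatr1 stood at 2.86, 2.92, 2.95 and 2.65 on the Thio+IL-4C arrays, against 2.06, 1.49 and 1.76 on the Thio arrays. It stood at 2.20, 2.33, 2.52 and 2.36 on the IL-4C arrays, against 2.39, 2.39 and 2.22 on the PBS arrays. The same pattern held, with the elicited groups apart and the resident groups overlapping. The differences were 1.08 (adjusted p = 6.83e-05) and 0.01 (SE 0.14, adjusted p = 0.964). Bysl, at 2.21 on Thio 1 against 1.07 and 1.15 on Thio 2 and Thio 3, split its group by slide. It fell by 1.15 in Thio versus PBS (adjusted p = 0.0117), and the difference of Thio 1 alone from the PBS mean was -0.41. Nop14 fell by 0.86, and for Thio 1 alone the difference was -0.22. A single array of the group allows no check of either value.

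Large subunit assembly is represented by 10 members. Of these, 7 rose and 1 fell in Thio+IL-4C versus Thio (median 1.22), where 16.2% of all genes rose and 23.1% fell. In IL-4C versus PBS 5 rose and 1 fell (median 0.60), where 16.9% of all genes rose and 15.3% fell. Gnl3 (nucleostemin), Ppan and Nop16 gave the largest rises in Thio+IL-4C versus Thio, at 1.55, 1.54 and 1.5. Ppan and Nop16 were not called in IL-4C versus PBS, at 0.11 and 0.23.

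Mrto4, a relative of the stalk protein P0 that holds its place on the precursor, rose in both settings. It stood at 1.86, 2.01, 1.88 and 1.78 on the Thio+IL-4C arrays, against 1.17, 0.63 and 0.72 on the Thio arrays. On the IL-4C arrays it stood at 2.02, 1.79, 1.99 and 1.83, against 1.06, 1.12 and 0.92 on the PBS arrays. Neither pair overlapped. The rises were 1.04 (adjusted p = 5.92e-05) and 0.88 (adjusted p = 0.000271), and the difference between them was 0.17 (SE 0.19, adjusted p = 0.511).

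Pes1, Bop1 and Wdr12 encode the partners of the PeBoW complex, which is needed to process large subunit RNA, and their transcripts did not move together. Pes1 stood at 0.90, 1.08, 1.04 and 0.66 on the Thio+IL-4C arrays, against 1.13, 1.0 and 1.02 on the Thio arrays. It stood at 0.74, 0.49, 0.51 and 0.09 on the IL-4C arrays, against 1.39, 1.37 and 0.98 on the PBS arrays. The resident pair was apart, with IL-4C low, and the elicited pair overlapped. Pes1 fell by 0.79 in IL-4C versus PBS (SE 0.17, adjusted p = 0.00268), where Bop1 rose by 0.62 (SE 0.12, adjusted p = 0.00155) and Wdr12 gave 0.66 (SE 0.26, adjusted p = 0.0796). In Thio+IL-4C versus Thio the Pes1 difference was -0.13 (adjusted p = 0.529), but its other probe rose by 1.1 (adjusted p = 0.0141), and that probe gave -0.43 in IL-4C versus PBS (adjusted p = 0.354).

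Rrp1 was the exception in elicited cells. It stood at 3.25, 3.42, 3.36 and 3.46 on the Thio+IL-4C arrays, against 4.47, 3.93 and 3.87 on the Thio arrays. It stood at 3.62, 3.87, 3.80 and 3.80 on the IL-4C arrays, against 3.99, 3.87 and 3.59 on the PBS arrays. All Thio+IL-4C arrays lay below all Thio arrays, and the resident groups overlapped. Rrp1 fell by 0.72 in Thio+IL-4C versus Thio (SE 0.15, adjusted p = 0.00249) and gave -0.05 in IL-4C versus PBS (adjusted p = 0.881). Its other probe gave -0.35 in Thio+IL-4C versus Thio (adjusted p = 0.295), so that the fall was called on 1 of 2 probes.

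The helicase genes follow. Ddx21, whose product binds both the precursor and snoRNAs, stood at 2.30, 2.57, 2.50 and 2.50 on the Thio+IL-4C arrays, against 0.99, 0.97 and 0.89 on the Thio arrays. Its resident levels were 1.90, 1.66, 2.10 and 1.72 on the IL-4C arrays, against 0.93, 1.01 and 0.69 on the PBS arrays. Neither pair overlapped, and the rises were 1.52 (adjusted p = 2.1e-06) and 0.97 (adjusted p = 9.03e-05). Its other probe rose by 1.46 in Thio+IL-4C versus Thio (adjusted p = 2.33e-06) but gave 0.17 in IL-4C versus PBS (adjusted p = 0.361). Ddx18 stood at 1.59, 1.76, 1.85 and 1.75 on the Thio+IL-4C arrays, against 1.85, 1.5 and 1.9 on the Thio arrays. On the IL-4C arrays it stood at 2.08, 2.05, 2.15 and 1.91, against 1.92, 1.95 and 1.91 on the PBS arrays. Both pairs overlapped, with differences of -0.01 (adjusted p = 0.932) and 0.12 (adjusted p = 0.508). Its other probe rose by 0.36 in Thio+IL-4C versus Thio (adjusted p = 0.0437) and gave 0.36 in IL-4C versus PBS (adjusted p = 0.0504).

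**Figure D3:**
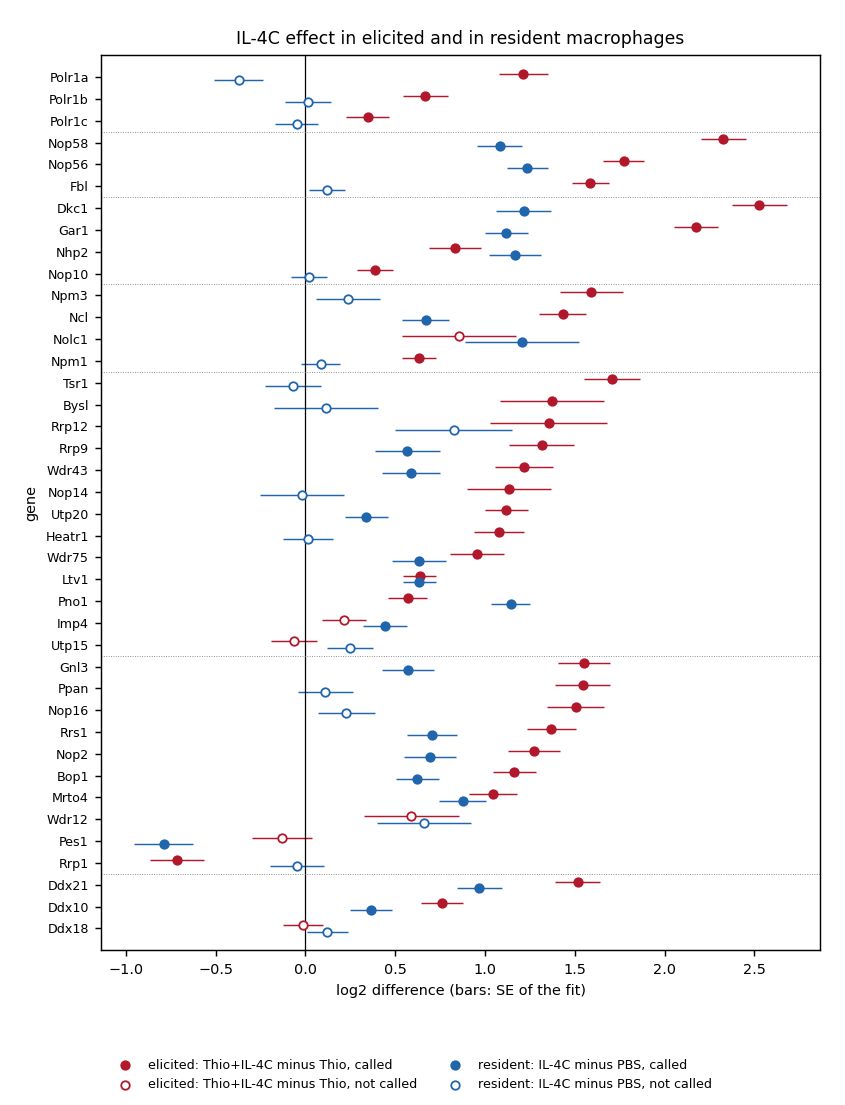
Log2 difference of each of the 40 genes (vertical axis, by role) in Thio+IL-4C minus Thio (red) and in IL-4C minus PBS (blue), with bars for the SE of the fit, filled points for called genes and open points for the rest. Of the 40 genes, 32 had the larger difference in the elicited pair.

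Whether the IL-4C effect differed between elicited and resident cells was tested as an interaction, the elicited difference minus the resident one. The interaction was positive and called for 24 members and negative and called for 2, where 12.7% and 19.9% of all genes were (32.7% in all), with a median of 0.60 for the members and -0.05 for all genes. It was largest for Tsr1 (1.77, SE 0.22, adjusted p = 9.49e-05), Polr1a (1.58, SE 0.19, adjusted p = 7.41e-05) and Fbl (1.47, SE 0.14, adjusted p = 1.75e-05). It was negative for Rrp1 (-0.67, SE 0.21, adjusted p = 0.0312) and Pno1 (-0.57, SE 0.15, adjusted p = 0.0133). Other probes of Rrp1 (-0.60, adjusted p = 0.233), Ncl (0.49, adjusted p = 0.106) and Nop56 (0.56, adjusted p = 0.213) were not called. Those of Tsr1 (1.73), Ddx21 (1.29) and Pes1 (1.54) were. For Npm1, 1 other probe gave -0.09 (adjusted p = 0.628) and the rest 0.69 to 0.93. Other probes of Nolc1 (1.25, adjusted p = 0.00614) and Wdr43 (0.91, adjusted p = 0.00118) were called, where those used were not. The counts depend on scaling: 12 and 2 with median centring and 9 and 5 on the authors' deposited log2 values. Of all 20342 genes, 1671 and 4079 were called with median centring, and 3093 and 5954 on the deposited values. The median of all genes was -0.24 with median centring and -0.20 on the deposited values. Relative to that median, the members' median interaction was 0.66 here, 0.67 with median centring and 0.39 in the deposited table, and without array PBS 2 the counts were 15 and 1. Without Thio 1 they were 28 and 3. Of all genes, 2147 and 3667 were called without PBS 2, and 3845 and 4309 without Thio 1.

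Of the 21 members that rose in IL-4C versus PBS, 19 also rose in Thio+IL-4C versus Thio, which is 90.5% of the resident and 57.6% of the elicited rises. Over all genes 1495 rose in both, 43.6% and 45.3% of the rises. The difference was larger in the elicited pair for 80% of members and for 48.1% of all genes. The elicited comparison and Thio versus PBS share the Thio arrays, so their values are given side by side only, as for Dkc1 (2.53 and -1.37), Nop58 (2.33 and -1.02), Fbl (1.59 and -1.14) and Pno1 (0.57 and 1.0).

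With IL-4C in both, elicited cells were compared with resident ones. In Thio+IL-4C versus IL-4C, 16 members were higher and 3 lower, where 27.9% of all genes were higher and 42.2% lower (70.1% called in all), with a median of 0.22 for the members and -0.21 for all genes. The largest rise was that of the processome gene Wdr43, at 0.97 (adjusted p = 0.000179), but its other probe gave -0.04 (adjusted p = 0.735). All Thio+IL-4C arrays lay on slide 2 and all IL-4C arrays on slide 1. A fit with slide as a block joins the slides only through the Thio arrays and so leans on Thio 1. It gave 10 members higher and 1 lower, where 2473 and 2954 of all 20342 genes were. There Wdr43 was at 0.27 (adjusted p = 0.29) and Nolc1 at -0.79 (adjusted p = 0.0266). For 16 members every Thio+IL-4C array was above every IL-4C array and for 5 below, where 29.8% and 42.7% of all genes did so. Direction in this comparison also depends on the scaling. Median centring gave 1 member higher and 8 lower, where 4514 and 10293 of all 20342 genes were. The deposited values gave 1 and 12, where 4641 and 10233 of all genes were. Quantile normalization gave 21 and 0, where 5623 and 8789 of all genes were. Of the 19 calls, 0 held under every other setting. Relative to the median of all genes, the members' median was 0.43 here, 0.43 with median centring, 0.30 in the deposited table and 0.59 with quantile normalization.

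Other genes of the pathway were taken from lists of its known factors. Of all genes, 16.2% rose and 23.1% fell in Thio+IL-4C versus Thio, and 16.9% and 15.3% in IL-4C versus PBS. In Thio versus PBS 20.2% rose and 24.3% fell. Of 32 other small subunit factors, 20 rose and none fell in Thio+IL-4C versus Thio (median 0.71), 10 rose and 1 fell in IL-4C versus PBS (median 0.25), and 1 rose and 18 fell in Thio versus PBS (median -0.42). Wdr46 rose by 1.66 (adjusted p = 6.19e-07) in the elicited and 0.73 (adjusted p = 0.000411) in the resident pair. Of 37 other large subunit factors, 25 rose and none fell in Thio+IL-4C versus Thio (median 0.73), 10 rose and 4 fell in IL-4C versus PBS (median 0.23), and 21 fell in Thio versus PBS (median -0.40). Rpf2, which helps to bring the 5S particle into the precursor, rose by 1.24 in the elicited (adjusted p = 4.8e-06) and by 1.01 in the resident pair (adjusted p = 3.06e-05).

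The rest of the RNA polymerase I machinery was more mixed. Of 11 measured genes, 5 rose and 1 fell in Thio+IL-4C versus Thio (median 0.06), where 16.2% and 23.1% of all genes did (median 0.03). In IL-4C versus PBS 3 rose and 3 fell (median 0.08), where 16.9% and 15.3% of all genes did (median -0.01). In Thio versus PBS 1 rose and 7 fell (median -0.43), where 20.2% and 24.3% of all genes did (median -0.09). Ubtf, which encodes the factor that opens ribosomal gene chromatin, fell by 0.88 in IL-4C versus PBS (adjusted p = 0.000161) and gave 0.06 in Thio+IL-4C versus Thio (adjusted p = 0.693). The subunit gene Polr1e rose by 1.44 (adjusted p = 3.76e-05) in the elicited and 0.55 (adjusted p = 0.029) in the resident pair. Of 13 genes of the RNA exosome, the nuclease that trims precursor ends, 10 rose and none fell in Thio+IL-4C versus Thio, and 8 rose and 1 fell in IL-4C versus PBS. Of 9 snoRNP assembly genes, 5 rose and 2 fell in Thio+IL-4C versus Thio, and 4 rose and none fell in IL-4C versus PBS.

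**Figure D4:**
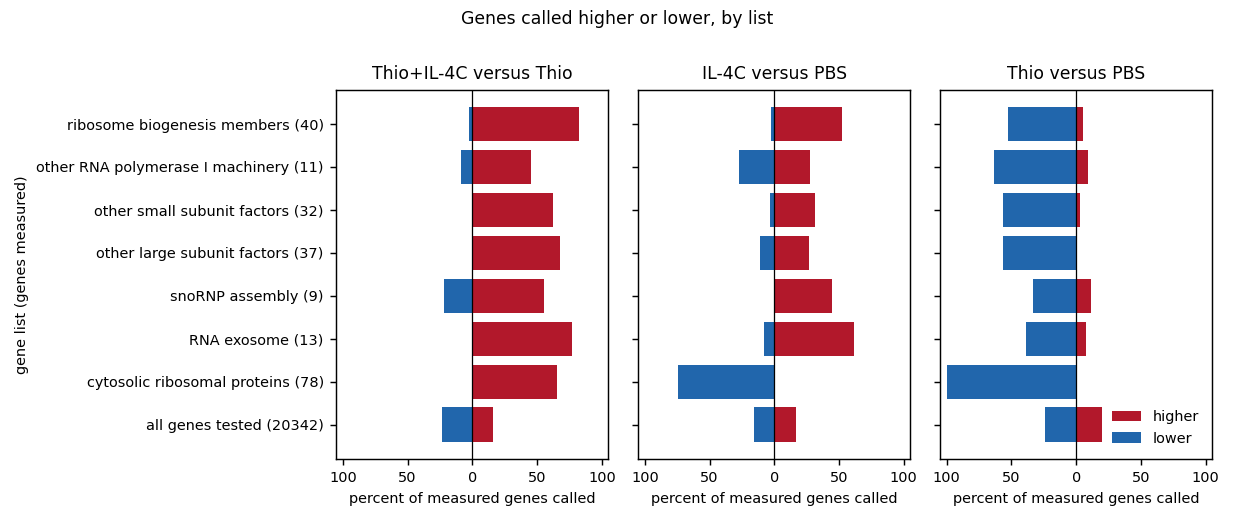
Percent of measured genes called higher (red, to the right) or lower (blue, to the left) for 7 gene lists and all genes, in 3 comparisons. Of the 40 members 33 were higher in Thio+IL-4C versus Thio and 21 in IL-4C versus PBS, while 16.2% and 16.9% of all genes were.

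Cytosolic ribosomal protein genes, whose products are the parts being assembled, did not follow the assembly genes in resident cells. Of 78 genes, 51 rose and none fell in Thio+IL-4C versus Thio (median 0.49), none rose and 58 fell in IL-4C versus PBS (median -0.54), and all 78 fell in Thio versus PBS (median -1.05). Rpl23 fell by 1.30 (adjusted p = 5.1e-05) and Rps27 by 1.09 (adjusted p = 4.87e-05) in IL-4C versus PBS. These are among the brightest genes on the arrays: 63 of the 78 had a mean level above 6, and all 184 genes above 6 had a median of -0.61 in IL-4C versus PBS. With quantile normalization 4 rose and 11 fell in IL-4C versus PBS (median -0.08), and the median of the bright genes was also -0.08. Of all 20342 genes, 3239 rose and 3016 fell there. The same scaling left 41 genes that fell in Thio versus PBS and 37 that rose in Thio+IL-4C versus Thio, and median centring left 18 of these rises. The interaction was positive and called for 77 of the 78, and for 30 with quantile normalization. The members lay between -2.26 and 5.37 in mean level, and their median under quantile normalization was 0.44 in IL-4C versus PBS and 1.23 in Thio+IL-4C versus Thio. Ribosomal protein genes have many near-identical pseudogenes, so their single values are uncertain.

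**Figure D5:**
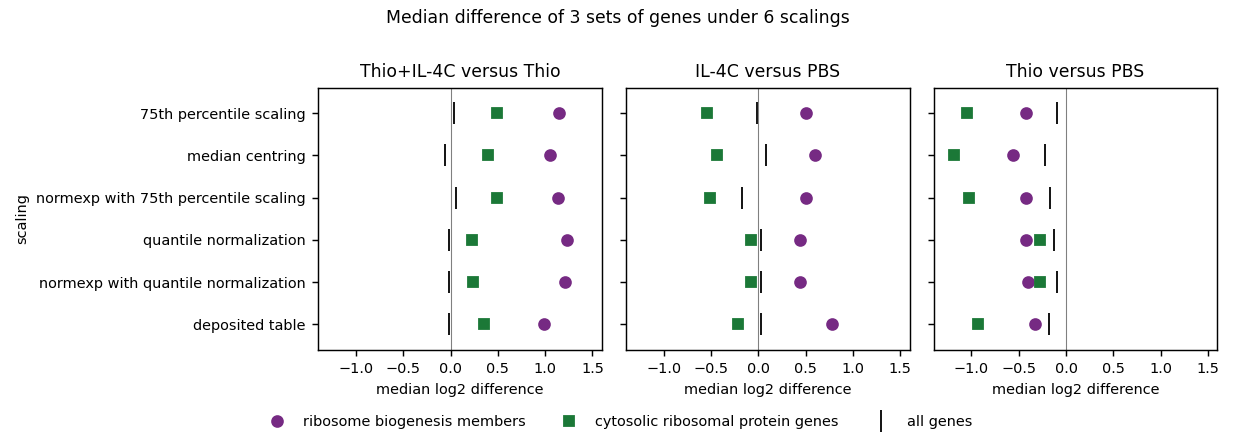
Median log2 difference (horizontal axis) of the 40 members (circles), 78 cytosolic ribosomal protein genes (squares) and all genes (bars) under 6 scalings (vertical axis), in 3 comparisons. The members' median in IL-4C versus PBS ran from 0.44 to 0.78, while that of the ribosomal protein genes ran from -0.54 to -0.08.

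Of the Myc network, 11 of 12 genes were measured. Myc itself stood at 0.85, 1.43, 1.07 and 0.72 on the Thio+IL-4C arrays, against -0.67, -0.94 and -0.85 on the Thio arrays. On the IL-4C arrays it stood at 1.63, 1.48, 1.05 and 1.27, against 1.09, 0.85 and 0.73 on the PBS arrays. The Thio arrays lay below all others, and the resident groups overlapped. Myc rose by 1.84 in Thio+IL-4C versus Thio (SE 0.19, adjusted p = 9.96e-06), fell by 1.71 in Thio versus PBS (SE 0.20, adjusted p = 3.49e-05) and gave 0.47 in IL-4C versus PBS (SE 0.19, adjusted p = 0.0797), with an interaction of 1.37 (adjusted p = 0.00187).

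Mnt, which encodes a repressor that shares the partner Max, fell by 1.40 in Thio+IL-4C versus Thio (adjusted p = 2.58e-05) and by 0.99 in IL-4C versus PBS (adjusted p = 0.000444). Max fell by 0.47 (adjusted p = 0.00586) and by 0.38 (adjusted p = 0.0204). Mxd3, of the Mxd family of Max partners, rose by 1.90 (adjusted p = 0.00258) and by 3.67 (adjusted p = 2.29e-05). Mlx rose in IL-4C versus PBS (0.59, adjusted p = 0.000941), Mxd4 fell there by 0.47 (adjusted p = 0.0144), and Mxd1, Mxi1, Mga, Mlxip and Mycn were called in neither IL-4C comparison. Of the 8 members whose promoters hold CACGTG, Ltv1, Nop2, Pno1, Utp20 and Wdr43 rose in both IL-4C comparisons. Of all 40 members 19 did so, and of all 20342 genes 1495. A link of the hexamer to these rises was not tested. Tsr1 was called in the elicited and Imp4 in the resident comparison, with an interaction that was called for Tsr1 (1.77) and not for Imp4 (-0.23), and Pes1 fell in the resident one.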

How the data were processed

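RNA of 14 samples was measured on 1-colour Agilent arrays, 1 array per sample. The authors deposited, per the file headers, a scanner table per array with spot intensities from Agilent Feature Extraction 11.0.1.1 (the submitters' processing notes give 11.5 and limma), and a table of their own log2 values with a median of 9.2341 on every array. The signal used here is the processed intensity, after background subtraction and detrending in that software, per the file headers. Against each array's own log2 median signal the deposited log2 values had r between 0.9882 and 0.9943. How their background was corrected is not stated in the sources used here.

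Control spots and spots marked as outliers (113 to 165 per array) were left out, and no spot was saturated. Probes were named through their accession in a RefSeq table of GRCm38.p6, which gave 1 symbol to 27235 probes and none to 28446. Repeated spots were averaged. Probes had to be well above background on 3 arrays or more, and the brightest probe over the 14 arrays stood for its gene. Levels are log2 of the signal minus the array's 75th percentile. All 5 comparisons came from a single limma 3.58.1 fit in R 4.3.3 with 1 mean per group, and a gene was called at a two-sided Benjamini-Hochberg adjusted p under 0.05 over 20342 genes. The fit was tested on simulated data. All adjusted p-values are limma's.

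Groups came from the treatment label and replicate numbers from the titles. The members and gene lists were chosen with earlier results of these data known. Values on every array are given for the members with the largest and the smallest absolute difference in IL-4C versus PBS in each role, those called lower there, and those with the largest calls in the other comparisons. From other lists, up to 3 called genes per direction and comparison could be named, and every gene of the Myc network. Alternatives were other scalings, the deposited table, other filters and probe rules, slide or replicate number as a block, array weights, and leaving out each array. The normexp alternative used the median signal, since the tables hold no mean signal column, with an offset of 50. Each probe of a member and the ribosomal protein list under every setting were added after the data were seen. Same-numbered arrays deviated from their group means with correlations of -0.446 to 0.368 (median -0.005), over 0.1 in 4 of 19 pairs. This gave no sign that the numbers pair the samples, but so few arrays per group cannot exclude it. The number of arrays limits the precision.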

Additional observations from a re-analysis of the deposited data

Results flagged for a closer look

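In the 80 sets of 4 arrays (40 genes in Thio+IL-4C and in IL-4C), 4 arrays lay far from the rest of their group, and chance alone marks about 1 in 20 such sets. Utp20 stood at -0.37 on Thio+IL-4C 4, where the other arrays of the group gave -0.15 to -0.11. Polr1b stood at -0.11 on IL-4C 4 (0.13 to 0.14 on the others), Bop1 at 2.04 on IL-4C 4 (2.29 to 2.33) and Wdr12 at -0.18 on IL-4C 1 (0.04 to 0.08).

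The IL-4C effect differed between elicited and resident cells for 26 members by the interaction in the limma fit. Tsr1 (1.77), Polr1a (1.58), Fbl (1.47), Ppan (1.43), Npm3 (1.36), Dkc1 (1.31), Nop16 (1.28), Bysl (1.26), Nop58 (1.24), Nop14 (1.15), Heatr1 (1.06) and Gar1 (1.06) had interactions over 1. Smaller positive ones were those of Gnl3 (0.98), Utp20 (0.78), Ncl (0.76), Rrp9 (0.75), Rrs1 (0.66), Pes1 (0.66), Polr1b (0.65), Nop2 (0.58), Npm1 (0.55), Ddx21 (0.55), Bop1 (0.54) and Nop56 (0.54). The negative ones were Rrp1 (-0.67) and Pno1 (-0.57). The other probes of Rrp1, Ncl and Nop56 gave no call, nor did 1 other probe of Npm1. Adjusted p ran from 1.75e-05 for Fbl to 0.0498 for Nop2. Of the 26 calls, 10 held under every other setting apart from leaving out single arrays, and 16 held with each array left out in turn.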

How the results depend on the processing

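Leaving out single arrays is counted apart. Calls that held the same way under every other setting numbered 32 of 34 in Thio+IL-4C versus Thio and 17 of 22 in IL-4C versus PBS. They numbered 10 of 23 in Thio versus PBS and 0 of 19 in Thio+IL-4C versus IL-4C. With each array left out in turn, 33, 16, 14 and 12 of the calls held, in the same order of comparisons. In Thio versus PBS, slide as a block and the fit on 1 slide both set Thio 1 alone against PBS. With the 2 groups fitted alone, 10 members were lower and 1 higher, where 2080 and 1839 of 20342 genes were. Members higher numbered 1 with the mean of all probes and 4 with array weights, where 4034 and 6427 genes were. In IL-4C versus PBS, 2 members were lower with quantile normalization, normexp with quantile normalization, probes above background on all arrays, slide as a block and array weights. In Thio+IL-4C versus IL-4C, members higher numbered 1 with median centring, 1 in the deposited table and 10 with slide as a block, and members lower 8, 12 and 1, with 0 under either quantile setting. Interactions called positive numbered 12 with median centring and 9 in the deposited table. Negative ones numbered 5 in the deposited table and 1 with quantile normalization or the mean of all probes. For these 2 comparisons, the counts of all genes with median centring and in the deposited table are given above. Whether the replicate numbers pair the samples is not known. With the replicate block, 32 members were higher in Thio+IL-4C versus Thio, 19 in IL-4C versus PBS, and interactions numbered 19 positive and 1 negative, while 20 were lower in Thio versus PBS. Leaving out 1 array gave 32 to 35 higher and 1 lower in Thio+IL-4C versus Thio, 15 to 23 and 1 to 2 in IL-4C versus PBS, 1 to 3 and 15 to 26 in Thio versus PBS, 11 to 18 and 1 to 4 in Thio+IL-4C versus IL-4C, and 15 to 28 and 1 to 3 interactions. Where this leaves 2 arrays in a group, the shared spread stands in for theirs. The mean of all probes turned Thio versus PBS to -0.42 for Ddx21, -0.01 for Nolc1 and -0.31 for Wdr43. In Thio+IL-4C versus IL-4C, median centring gave -0.05 for Gar1 and -0.11 for Ltv1, the deposited table -0.09 for Gar1, -0.13 for Ltv1 and -0.03 for Fbl, and slide as a block -0.79 for Nolc1 and 0.16 for Rrp1. The cause of these changes was not tested. Comparisons of groups on different slides had no fit on 1 slide.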

Other observations

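Genes that respond to handling stress were measured on the same arrays (10 of 11 listed). In Thio+IL-4C versus Thio, 5 rose and 4 fell (median 0.50), where 16.2% and 23.1% of all genes did. In IL-4C versus PBS 1 rose and 3 fell (median -0.76), where 16.9% and 15.3% of all genes did. In Thio versus PBS 3 rose and 6 fell (median -1.02), where 20.2% and 24.3% of all genes did. Hspa1a, which encodes an inducible heat shock protein, rose by 3.635 on the log2 scale (12.4-fold) in Thio+IL-4C versus Thio (limma adjusted p = 0.000112). On the same log2 scale it fell by 4.96 in IL-4C versus PBS (adjusted p = 1.19e-05) and by 4.22 in Thio versus PBS (adjusted p = 6.88e-05). Atf3, a stress transcription factor gene, fell by 1.56 in Thio+IL-4C versus Thio (adjusted p = 3.73e-05) and rose by 3.29 in Thio versus PBS (adjusted p = 1.61e-07). The part of these differences in the results on ribosome biogenesis genes was not tested.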
